A study of Rattus norvegicus with 8 samples.

Results

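The aryl hydrocarbon receptor (AHR) battery was followed in primary rat chondrocytes through 7 genes, Ahr, Arnt, Ahrr, Cyp1a1, Cyp1b1, Tiparp and Aldh3a1, of the 14217 genes that the arrays name. All probe sets annotated to exactly 1 of these genes were taken, which gave 9 of 31042 probe sets, 2 each for Ahr and Tiparp and 1 for each other gene. Ahrr, Cyp1a1, Cyp1b1, Tiparp and Aldh3a1 were chosen by their values in U0126 over DMSO, where they had been among the genes with large differences, and Ahr and Arnt complete the pathway. Values of U0126 over DMSO are therefore described and carry no test.

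The cells came from the femoral condyles of neonatal Sprague Dawley rats and were grown as a monolayer, then kept overnight without serum. U0126, an inhibitor of the kinases MEK1/2 upstream of ERK, or its vehicle DMSO was given 30 minutes before TNFα at 30 ng/ml or its vehicle BSA, and RNA was taken after 24 hours. This gave 4 treatments, namely U0126 with TNFα, U0126 with BSA, DMSO with TNFα (here TNFα) and DMSO with BSA (here DMSO), each measured on 1 Affymetrix RAT230_2.0 array in each of 2 independent experiments. Lack of serum was common to all groups, and whether pups were pooled is not given in the sources used here.

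The AHR is a ligand-activated transcription factor of the bHLH-PAS family, held in the cytosol by HSP90 and co-chaperones. With a ligand bound it moves to the nucleus, pairs with ARNT and binds DNA elements whose core reads GCGTG. Its classical targets are enzymes that oxidize or conjugate foreign compounds, best known from liver and barrier tissues, and proteins such as AHRR and TIPARP that restrain the receptor in turn.

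Promoters are shown for Ahrr, Cyp1b1 and Tiparp, the targets with an entry in the RefSeq table (build GRCr8), and for Arnt as the receptor's partner. Each run spans 250 bases before to 50 bases after the start of the gene, 5′ to 3′, and capitals mark GCGTG or, for a core on the opposite strand, CACGC.
Ahrr, chr1:30821969-30822268, + strand: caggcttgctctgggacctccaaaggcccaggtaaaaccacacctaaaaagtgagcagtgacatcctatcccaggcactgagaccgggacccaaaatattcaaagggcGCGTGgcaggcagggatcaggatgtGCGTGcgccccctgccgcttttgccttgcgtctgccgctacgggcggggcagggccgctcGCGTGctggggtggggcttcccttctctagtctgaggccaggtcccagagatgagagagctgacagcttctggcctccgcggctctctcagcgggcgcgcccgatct
Cyp1b1, chr6:21094315-21094614, + strand: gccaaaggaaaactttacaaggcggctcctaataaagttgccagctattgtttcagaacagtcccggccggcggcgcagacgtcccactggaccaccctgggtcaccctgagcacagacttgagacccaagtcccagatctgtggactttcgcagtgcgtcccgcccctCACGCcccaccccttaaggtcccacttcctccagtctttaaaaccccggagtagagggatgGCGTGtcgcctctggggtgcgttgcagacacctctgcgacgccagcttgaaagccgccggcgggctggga
Tiparp, chr2:152063519-152063818, + strand: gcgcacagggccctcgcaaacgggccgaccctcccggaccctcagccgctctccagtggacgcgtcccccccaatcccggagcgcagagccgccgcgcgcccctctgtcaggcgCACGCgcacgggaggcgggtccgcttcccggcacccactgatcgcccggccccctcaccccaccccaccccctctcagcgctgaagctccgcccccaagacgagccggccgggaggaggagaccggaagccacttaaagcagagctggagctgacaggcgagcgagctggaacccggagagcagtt
Arnt, chr2:185686453-185686752, + strand: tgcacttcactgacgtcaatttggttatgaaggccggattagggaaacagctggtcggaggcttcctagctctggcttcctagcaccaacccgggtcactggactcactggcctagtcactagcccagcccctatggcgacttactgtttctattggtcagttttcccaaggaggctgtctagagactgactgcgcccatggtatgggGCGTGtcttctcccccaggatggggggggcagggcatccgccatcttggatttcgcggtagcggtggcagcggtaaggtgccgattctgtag

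The search covered both strands, and positions are those of the first base of a match. Ahrr held 3 cores, at 142, 117 and 57 bases before the start. Cyp1b1 held 2, at 81 bases before the start on the opposite strand and at 20 bases. Tiparp held 1 at 136 bases, on the opposite strand, and Arnt held 1 at 42 bases, while the window of Ahr held 0. Among all 33469 windows of this length, 29.7% held at least 1 core, 10.2% at least 2 and 3.59% at least 3. The longer form TNGCGTG, which includes the core, occurred once each in Ahrr and Cyp1b1 and at least once in 4.89% of all windows. A match describes letters and is not a binding site.

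Intensities below are summary values of a probe set, centred on the median of their array and given on the linear scale. They compare treatments of 1 probe set and not 1 gene with another. Pairs of values are those of experiments 1 and 2, and a fold divides arrays of the same experiment. Dim probe sets could lie within background, since detection calls were not used here. In RNA of whole cultures, fewer cells of a type and less RNA per cell cannot be told apart. Of the chondrocyte markers, Col2a1 (type II collagen) spanned 24282 to 32104 and Acan (aggrecan) 7741 to 23393 over the 8 arrays. Of 8 macrophage markers, Ptprc spanned 60.6 to 69.7 and Adgre1 30.0 to 340.4, while Cd14 spanned 849 to 1660 and Lyz2 518 to 1241. As a check of U0126, Egr1, an immediate target of ERK, was measured at 0.45-fold and 0.41-fold in U0126 with TNFα over TNFα and at 0.35-fold and 0.36-fold in U0126 over DMSO. By limma, 0 of 8 ERK output genes passed in U0126 with TNFα over TNFα, and 4 had an unadjusted p under 0.05. No share of all probe sets was counted at that unadjusted cut, so nothing is read from the 4. The median log2 fold change of the 8 genes was -0.39. Fosl1 (0.96-fold and 1.07-fold) and Spry4 (1.02-fold and 0.93-fold) went in opposite directions between the experiments, and the others were lower in both.

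Ahrr, a repressor that competes with the AHR for ARNT, was high in every culture given U0126 and low in every culture without it. Its intensities were 775 and 908 under both agents, 800.3 and 916 under U0126 alone, 253 and 236 under TNFα alone, and 242 and 279 under DMSO. The lowest array with U0126 lay well above the highest array without it, and the ranges of both agents and of U0126 alone overlapped. In U0126 over DMSO, Ahrr stood at 3.30-fold and 3.29-fold. In TNFα over DMSO it stood at 1.05-fold and 0.85-fold, in opposite directions.

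Tiparp, an ADP-ribosyltransferase that limits AHR activity, was likewise high in every culture given U0126 and low in every culture without it. The probe set of the higher mean (1374446_at) had 3296 and 3412 under both agents, 3519.9 and 3867 under U0126 alone, 1731 and 1706 under TNFα alone, and 1718 and 1911 under DMSO. The other (1385407_at) had 1664 and 2159 under both agents, 1893 and 2691 under U0126 alone, 829 and 1068 under TNFα alone, and 795 and 1023 under DMSO. On both, the 4 arrays with U0126 lay above the 4 without. Unlike for Ahrr, the arrays with both agents lay below those of U0126 alone without overlap on the first, while these ranges overlapped on the other. U0126 over DMSO came to 2.05-fold and 2.02-fold on the first and 2.38-fold and 2.63-fold on the other. TNFα over DMSO came to 1.01-fold and 0.89-fold on the first and 1.04-fold and 1.04-fold on the other.

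Cyp1a1, the cytochrome P450 most used as a reporter of AHR activity, peaked with U0126 alone. It had intensities of 454 and 508 under both agents, 889 and 1226 under U0126 alone, 331 and 283 under TNFα alone, and 364 and 343 under DMSO. The 4 treatments did not overlap, and the order was U0126, both agents, DMSO and TNFα. U0126 over DMSO came to 2.44-fold and 3.58-fold. With TNFα added to U0126 the level was 0.51-fold and 0.41-fold of that under U0126 alone, whereas TNFα by itself gave 0.91-fold and 0.83-fold of DMSO.

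Cyp1b1, a cytochrome P450 that oxidizes steroids and hydrocarbons, was higher with either agent and highest with both. Its intensities were 15129.9 and 17853 under both agents, 9979 and 13750.5 under U0126 alone, 7196 and 9329 under TNFα alone, and 3443 and 6142 under DMSO. Experiment 2 was the higher in every treatment, and still the ranges of the treatments did not overlap. U0126 over DMSO came to 2.90-fold and 2.24-fold, and TNFα over DMSO to 2.09-fold and 1.52-fold. Both agents together stood at 4.39-fold and 2.91-fold of DMSO.

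Aldh3a1, which oxidizes aldehydes such as those of lipid peroxidation, was likewise higher with either agent. It had intensities of 1573 and 1473 under both agents, 979 and 1178 under U0126 alone, 1156 and 1159 under TNFα alone, and 370.0 and 388 under DMSO. The DMSO arrays stood apart at the bottom, the arrays with both agents were the highest, and the ranges of U0126 alone and TNFα alone overlapped. U0126 over DMSO came to 2.65-fold and 3.03-fold and TNFα over DMSO to 3.12-fold and 2.98-fold. Both agents together stood at 4.25-fold and 3.79-fold of DMSO.

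Neither the receptor nor its partner had the arrangement of its targets. Ahr had intensities of 295 and 282 under both agents, 301 and 305 under U0126 alone, 303 and 308 under TNFα alone, and 336 and 316 under DMSO on probe set 1369147_at. On 1369146_a_at it had 249 and 323 under both agents, 261 and 269 under U0126 alone, 419 and 335 under TNFα alone, and 343 and 278 under DMSO. These probe sets disagreed, since TNFα over DMSO came to 0.90-fold and 0.98-fold on the first and to 1.22-fold and 1.21-fold on the second. Arnt had 783 and 661 under both agents, 817 and 529 under U0126 alone, 872 and 548 under TNFα alone, and 754 and 541 under DMSO. It was lower in experiment 2 under every treatment, and the ranges of neighbouring treatments overlapped.

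**Figure D1:**
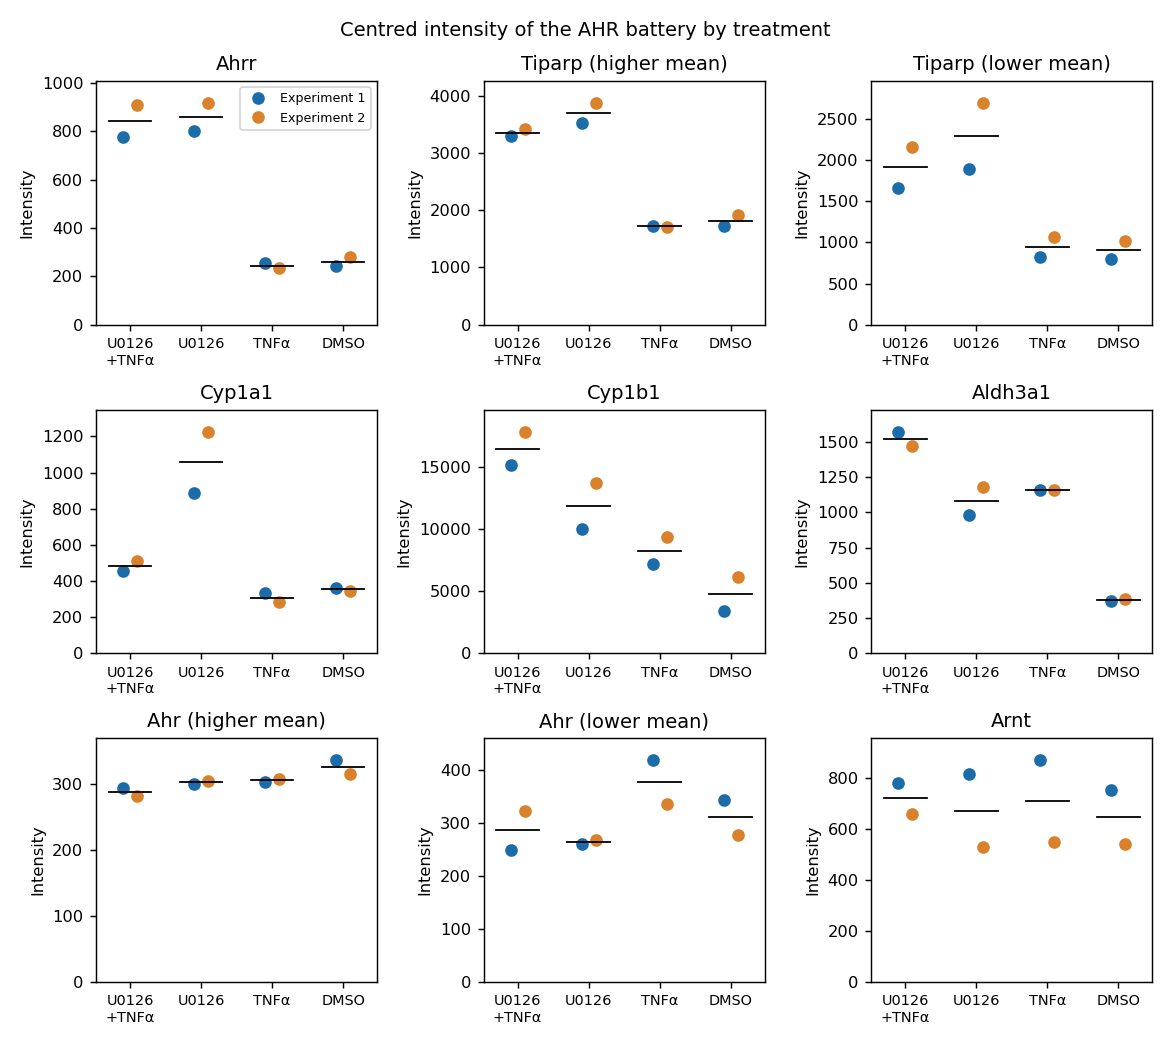
Centred intensity (linear axis from 0) of the 9 probe sets under 4 treatments. Points are single arrays, coloured by experiment, and bars are means of 2 arrays. Ahrr and Tiparp are high in both groups given U0126, Cyp1a1 is highest under U0126 alone (889 and 1226), and Cyp1b1 and Aldh3a1 are highest under both agents.

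A fold rule counted a probe set that differed by at least 0.536 on the log2 scale, the study's own threshold, in 1 direction in both experiments. In U0126 over DMSO, 6 of 9 probe sets from 5 genes were past it upwards, beside 0.18% of all probe sets, and nothing is read from this count because that comparison chose the genes. The median log2 fold over the 7 genes, each by its probe set of the higher mean, was 1.35, beside -0.0022 over all probe sets. Ahr and Arnt were not past the rule on any probe set.

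Whether the battery also responded to U0126 in cultures given TNFα was tested by comparing the 4 arrays with TNFα, which are not part of U0126 over DMSO. The spread came from all 8 arrays, those that chose the genes included, and for Ahrr and Tiparp the levels with both agents over DMSO were known beforehand, so their calls are not independent of the choice. Ahrr and Tiparp rose in U0126 with TNFα over TNFα. For Ahrr the folds were 3.06-fold and 3.85-fold, and limma gave a log2 fold change of 1.78 with a standard error of 0.09 and an adjusted p of 0.00842. For Tiparp they were 1.90-fold and 2.00-fold on 1374446_at, a log2 fold change of 0.96 with a standard error of 0.07. On 1385407_at they were 2.01-fold and 2.02-fold, a log2 fold change of 1.01 with a standard error of 0.07, and both probe sets had an adjusted p of 0.011 from limma. In all, 3 of 9 probe sets passed upwards, against 0.129% of all probe sets, and 0 passed downwards, against 0.126%. All 3 calls were lost without either array of U0126 with TNFα (adjusted p of 0.114 and 0.123 for Ahrr), and also without the term for the experiment (0.107 for Ahrr). With only the 4 arrays compared in the fit, the limma adjusted p was 0.00663 for Ahrr and 0.0103 for both probe sets of Tiparp.

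The 3 enzymes were higher in both experiments but did not pass. Cyp1b1 came closest to the threshold of 0.05, with 2.10-fold and 1.91-fold and a log2 fold change of 1.00 (standard error 0.13, limma adjusted p 0.0522). It passed when only the 4 arrays compared were fitted (limma adjusted p 0.0103) and when either DMSO array was left out (0.0291). It did not pass without any one of the other 6 arrays (0.0788 to 0.275) or without the term for the experiment (1.00), and in all it passed in 3 of 7 other settings and in 2 of 8 fits that left out 1 array. Cyp1a1 stood at 1.37-fold and 1.80-fold, with a 95% interval of 1.22-fold to 2.02-fold (limma adjusted p 0.162). Aldh3a1 stood at 1.36-fold and 1.27-fold, with a 95% interval of 1.13-fold to 1.53-fold (limma adjusted p 0.159). The intervals are for single probe sets and take no account of how many were tested.

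The receptor genes did not pass either. Ahr stood at 0.97-fold and 0.92-fold on 1369147_at (limma adjusted p 0.638). On 1369146_a_at it stood at 0.60-fold and 0.96-fold (limma adjusted p 0.379), most of it in experiment 1, with a 95% interval of 0.58-fold to 0.99-fold that takes no account of the number tested. Arnt stood at 0.90-fold and 1.20-fold (limma adjusted p 0.866), in opposite directions. By the fold rule, 4 of 9 probe sets, those of Ahrr, Tiparp and Cyp1b1, were higher in U0126 with TNFα over TNFα, against 0.258% of all. The median log2 fold change over the 7 genes was 0.65, beside 0.0078 over all probe sets.

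**Figure D2:**
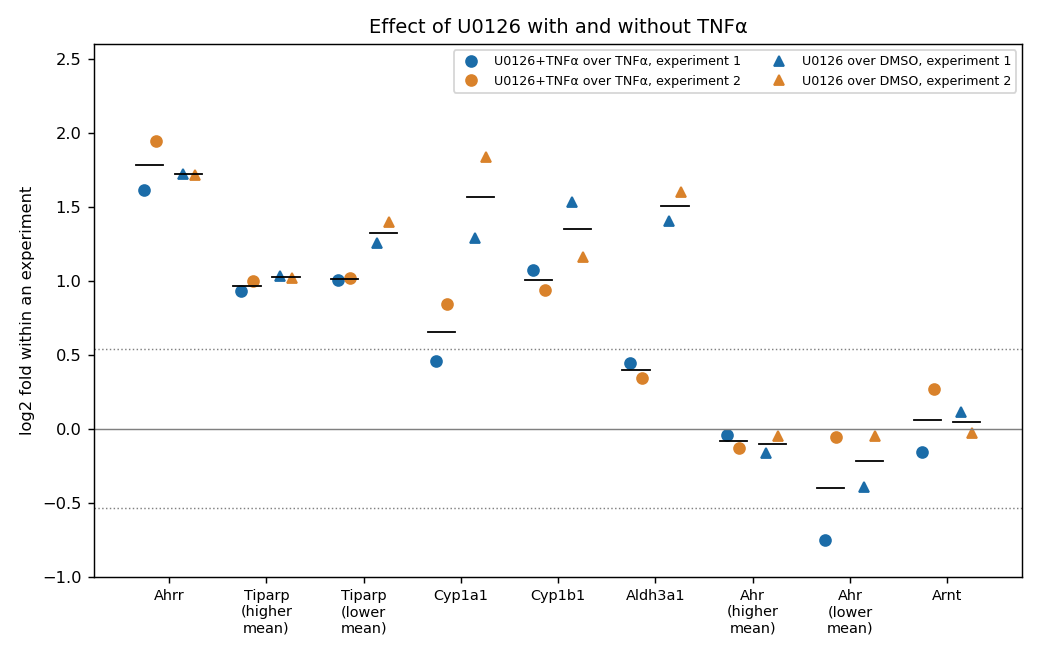
Log2 folds within an experiment for U0126 with TNFα over TNFα (circles) and U0126 over DMSO (triangles). Bars are means of 2 experiments and dotted lines mark the fold rule at 0.536. The means of Ahrr are 1.78 with TNFα and 1.72 without it, and those of Aldh3a1 are 0.40 and 1.50.

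The size of the U0126 effect was then set side by side with and without TNFα, as mean log2 folds of 2 experiments. For Ahrr it was 1.78 with TNFα and 1.72 without it. For Tiparp it was 0.96 with TNFα and 1.03 without it on 1374446_at, and 1.01 and 1.32 on 1385407_at. The 2 values of Ahrr and of the first Tiparp probe set thus lay close together. For Cyp1a1 it was 0.65 with TNFα and 1.56 without it, a difference of -0.83 and -0.99 in the 2 experiments. For Aldh3a1 it was 0.40 with TNFα and 1.50 without it, a difference of -0.96 and -1.25. Cyp1b1 lay between them, at 1.00 with TNFα and 1.35 without it, a difference of -0.46 and -0.23. No test was made of these differences, because the genes were chosen for large values without TNFα, which by itself favours a smaller value with it.

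The same arrays also give the effect of TNFα. In TNFα over DMSO, 2 of 9 probe sets, those of Cyp1b1 and Aldh3a1, were past the fold rule upwards, against 1.65% of all. The mean log2 fold was 1.61 for Aldh3a1 (SD 0.05, n = 2) and 0.83 for Cyp1b1 (SD 0.33, n = 2). With U0126 present throughout, the mean was 0.50 for Aldh3a1 (SD 0.26, n = 2) and 0.49 for Cyp1b1 (SD 0.16, n = 2). Cyp1a1 was the 1 member past the rule downwards in U0126 with TNFα over U0126, against 0.309% of all, with a mean of -1.12 (SD 0.21, n = 2). Ahrr stood at 0.97-fold and 0.99-fold there. Tiparp stood at 0.94-fold and 0.88-fold on 1374446_at and at 0.88-fold and 0.80-fold on 1385407_at. TNFα over DMSO shares the DMSO arrays, and U0126 with TNFα over U0126 the U0126 arrays, with the comparison that chose the genes, so neither was tested.

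**Figure D3:**
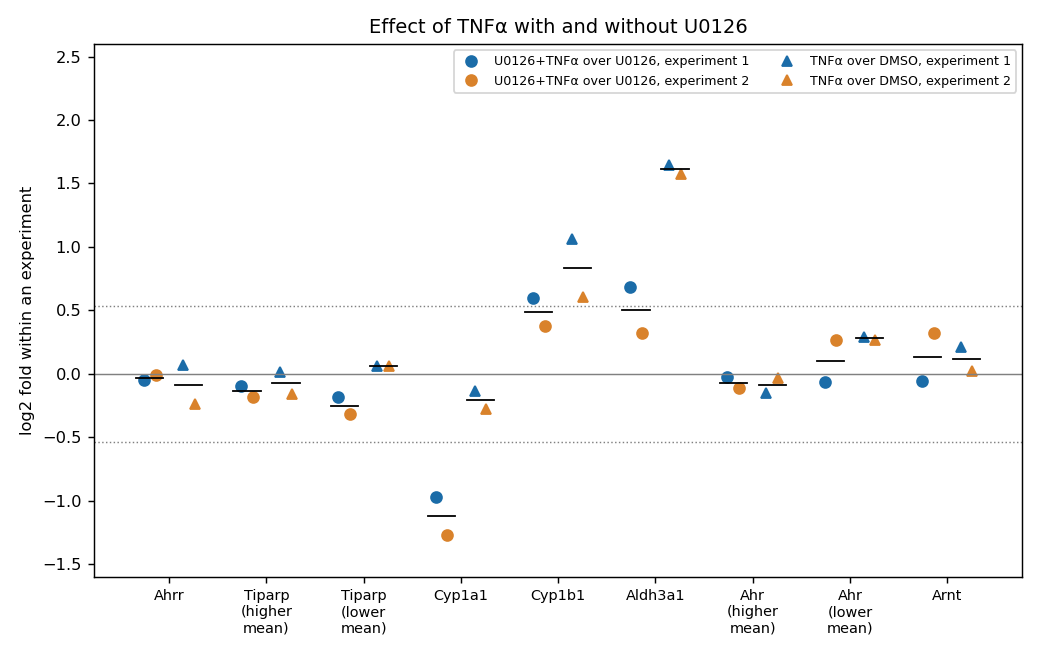
Log2 folds within an experiment for U0126 with TNFα over U0126 (circles) and TNFα over DMSO (triangles). Bars are means of 2 experiments and dotted lines mark the fold rule at 0.536. Aldh3a1 is the highest in TNFα over DMSO (mean 1.61) and Cyp1a1 the lowest in U0126 with TNFα over U0126 (mean -1.12).

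The effect of both agents over DMSO can also be set beside the sum of their separate effects, in log2 folds. The gap between them is the difference with and without TNFα given above in another form, not a further result. Choosing the genes by U0126 over DMSO also favours a large sum. Ahrr had 1.69 for both agents and a sum of 1.63, and Tiparp had 0.89 and a sum of 0.95 on 1374446_at. On 1385407_at, Tiparp had 1.07 and a sum of 1.39. Aldh3a1 had 2.01 for both agents and a sum of 3.11. Cyp1a1 had 0.44 and a sum of 1.36, and Cyp1b1 had 1.84 and a sum of 2.18. By these means, both probe sets of Tiparp and the 3 enzymes were below the sum. Tiparp on 1374446_at lay close to it, with gaps of -0.11 and -0.02 in the 2 experiments. Ahrr was below the sum in experiment 1 and above it in experiment 2 (-0.11 and 0.23). None of this was tested.

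Other genes of the pathway were taken from 4 lists of 32 symbols, 26 of them measured. The lists were chosen with earlier results of these data known, so calls among them are not independent of that knowledge. In U0126 with TNFα over TNFα, limma called 2 higher, against 0.129% of all probe sets, and 0 lower, against 0.126%. The remaining 24 were not called, and the median log2 fold change was 0.01. Both that rose were among 8 other known AHR targets. Nqo1, a quinone reductase that NRF2 also induces, had intensities of 15552 and 14867 under both agents, 16263 and 15575 under U0126 alone, 4162 and 3898 under TNFα alone, and 4009.8 and 5011 under DMSO. The cultures with U0126 lay above those without, as for Ahrr. It stood at 3.74-fold and 3.81-fold in U0126 with TNFα over TNFα (limma adjusted p 0.00842). Gsta1, a glutathione S-transferase, stood at 2.45-fold and 1.96-fold (limma adjusted p 0.0341), and its probes may also read close relatives. Neither was called without an array of U0126 with TNFα or without the term for the experiment, and Gsta1 was not called without TNFα of experiment 1 (0.0878) or without either DMSO array (0.051).

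The remaining targets did not pass, and 3 of the 8, the called pair included, had an unadjusted p under 0.05. The third, Serpinb2, an inhibitor of plasminogen activators, stood at 0.32-fold and 0.73-fold (limma adjusted p 0.359), opposite in direction to Nqo1 and Gsta1. Cyp1a2, the liver relative of Cyp1a1, stood at 1.07-fold and 1.05-fold (limma adjusted p 0.73), and the amino acid transporter Slc7a5 at 1.12-fold and 1.49-fold (0.485). Of the receptor complex, Hsp90ab1, a chaperone, stood at 1.01-fold and 1.08-fold and its co-chaperone Ptges3 at 1.02-fold and 1.02-fold. Of 10 bHLH-PAS relatives, 0 passed and 2 had an unadjusted p under 0.05, with the hypoxia factor Epas1 at 0.42-fold and 0.67-fold (limma adjusted p 0.112) and the clock genes Npas2 at 0.44-fold and 0.68-fold (0.116), Per1 at 0.99-fold and 0.73-fold (0.42) and Clock at 1.02-fold and 1.11-fold (0.69). Without TNFα of experiment 2, Epas1 (0.00885) and Npas2 (0.0118) passed. Of 6 coactivators, 0 passed and 1 had an unadjusted p under 0.05, with Ep300, an acetyltransferase, at 0.79-fold and 0.92-fold (limma adjusted p 0.279). Its relative Crebbp, the coactivator Ncoa3 and the corepressor Nrip1 had log2 fold changes of -0.05, 0.10 and -0.10. How many of all probe sets had an unadjusted p under 0.05 was not counted, so nothing is read from the list counts at that cut.

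**Figure D4:**
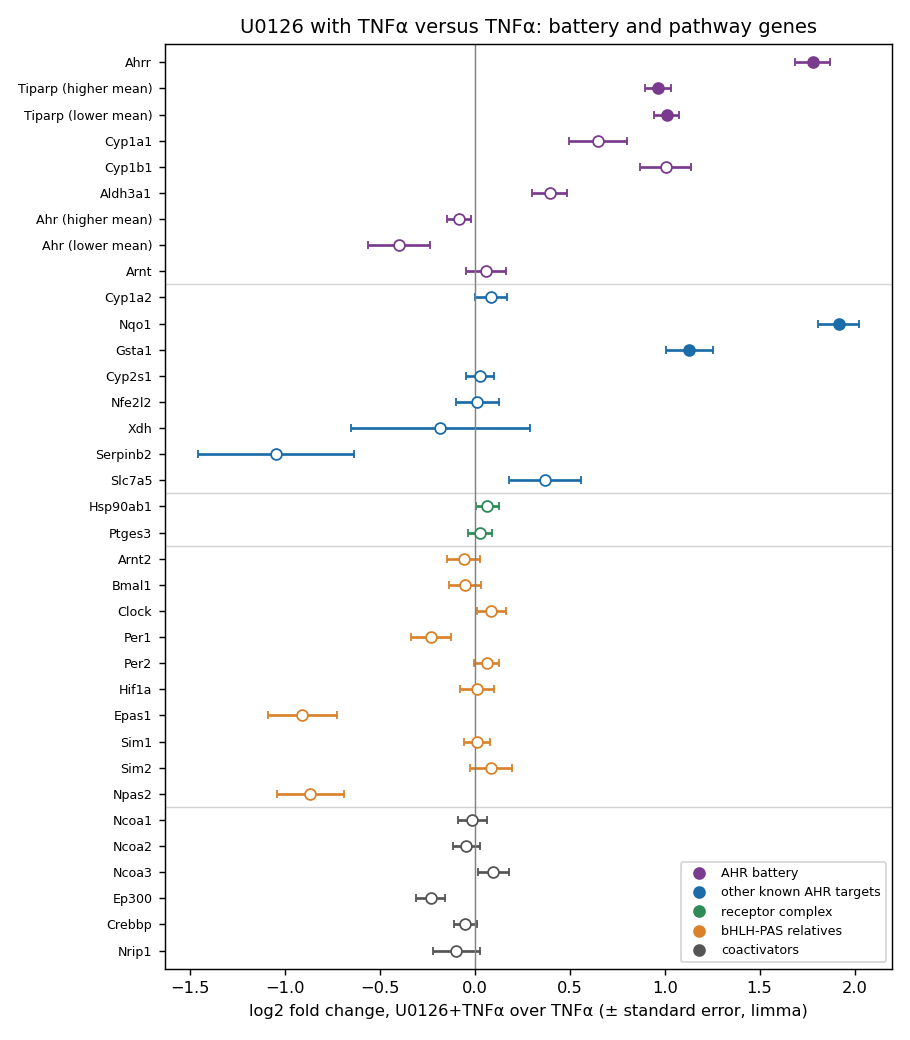
Log2 fold changes of U0126 with TNFα over TNFα with their standard errors from limma (2 arrays per group), for the battery and 26 pathway genes. Filled points passed an adjusted p of 0.05, which were Ahrr, both probe sets of Tiparp, Nqo1 and Gsta1.

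Profiles closest to each target were found by the root mean square difference of 6 log2 folds, those of 3 treatments over DMSO in 2 experiments, which share the DMSO arrays. Ahrr lay closest to Nqo1 (0.18), Srxn1, a sulfiredoxin (0.37), and Pir, an iron-binding nuclear protein (0.48). Tiparp lay closest to another probe set of Srxn1 (0.12), to Gclc, of glutathione synthesis (0.19), and to the small heat shock protein Hspb8 (0.195). Within the battery, Ahrr lay at 0.615 from Tiparp, 0.62 from Cyp1b1 and 1.01 from Aldh3a1. Nearest profiles were picked as the smallest distances among all other probe sets with 1 symbol. That they lie closer than a member is therefore largely set by the search, and nothing is read from it. The folds of U0126 over DMSO, which chose the genes, were also among the 6.

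Members of the battery were left out of this ranking. Cyp1b1 lay closest to Ptgr1, a reductase of prostaglandins (0.22), then to Pir (0.40) and the interferon-induced Ifit2 (0.46). Aldh3a1 lay closest to Ifit2 (0.52), the MHC class I gene RT1-S3 (0.53) and Ptgr1 (0.62), while Cyp1b1 within the battery was as close to it (0.52). Cyp1a1 lay closest to Qpct, a glutaminyl cyclase (0.42), Ddit4l (0.45) and Tmem26 (0.46), and was about as far from Tiparp (0.45).

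Cell type markers were read beside these values. Summed over 9 chondrocyte markers, intensities were 173760 and 117587 under both agents and 184812 and 128219 under U0126 alone. They were 135918 and 90526 under TNFα alone, and 176954 and 115664 under DMSO. All 9 were higher in U0126 with TNFα over TNFα, with a median log2 fold change of 0.47, and 8 had an unadjusted p under 0.05. The share of all probe sets at that unadjusted cut was not counted, so nothing is read from the marker counts at it. By limma, 2 of 9, Acan and Cnmd, were called higher there, against 0.129% of all probe sets. Neither was called without either array of U0126 with TNFα, either U0126 array or TNFα of experiment 1 (0.0643 for Acan). Summed over 8 macrophage markers, they were 2418 and 3217 under both agents, 2460.2 and 3149 under U0126 alone, 3306 and 4218 under TNFα alone, and 2489.9 and 3761 under DMSO, and 0 of 8 passed, with 2 at an unadjusted p under 0.05. The sums under TNFα alone were the lowest of their experiment for chondrocyte markers and the highest for macrophage markers. A sum is weighted to the brighter probe sets, and the macrophage markers did not move together. In TNFα over DMSO, Cd68, Cd14 and Adgre1 were higher in both experiments, and Ptprc, Itgam and Lyz2 were lower in both. Csf1r and Mrc1 went in opposite directions. Of 4 endothelial, 2 osteoblast and 5 hepatocyte markers, 0 passed, with 0, 1 and 0 at an unadjusted p under 0.05. Their part in the values of the battery was not tested.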

How the data were processed

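RNA from 8 cultures was read on 1-colour Affymetrix arrays. The authors deposited linear intensities, a single value for each probe set and array, and RMA is the tool named in the submitters' notes, with no version. The further scaling in the study's methods (median of the chip, then DMSO) was not found in the deposited intensities, whose array medians ran from 365.1 to 378.2. Values were log2 transformed and centred here on each array's median. How few arrays there were sets the precision. Control probe sets (57 of 31099) were dropped. The platform annotation gave a single symbol to 20826 of the others.

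All 8 arrays entered a single limma fit (version 3.58.1, R 4.3.3) with treatment and experiment as terms, and p-values were adjusted over 31042 probe sets by Benjamini-Hochberg. The study's methods set each array against DMSO of its own experiment, hence the replicate number served as a block. Same-numbered arrays deviated together, with correlations from 0.728 to 0.829 over 6 pairs of treatments. The fit was tested on simulated data. The labels call the arrays biological replicates.

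The members and lists were chosen with earlier results of these data known. Named besides the members were pathway genes that passed and, of those that did not, up to 4 per list with the smallest unadjusted p. The 3 nearest profiles of each target, ERK output genes as a check of U0126, and markers were named too. The alternatives concerned the experiment term, normalization, a filter on dim probe sets, the prior variance, the arrays fitted, the fold threshold and the choice of probe set.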

Additional observations from a re-analysis of the deposited data

How the results depend on the processing

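Of the 9 probe sets of the battery, 3 passed in U0126 with TNFα over TNFα (2 genes), beside 2 other pathway genes and 79 of all probe sets. With no replicate block these became 0, 0, 0 and 0, with limma adjusted p of 0.107 for Ahrr and 0.292 and 1.00 for Tiparp. A fit of only the 4 arrays compared called 291 of all probe sets and 4 of the battery. Cyp1b1 also passed with quantile normalization (limma adjusted p 0.0474) and a trended prior variance (0.0363). The 3 calls of the battery held with no centring, a robust prior, or dim probe sets left out. Leaving out 1 array at a time gave 0 to 4 probe sets and 0 to 3 genes of the battery, 0 to 5 other pathway genes and 0 to 416 of all probe sets. All were 0 without either array of U0126 with TNFα. The count over all probe sets was 416 when TNFα of experiment 2 was dropped and 18 when that of experiment 1 was. Dropping a U0126 array gave 31, and dropping a DMSO array gave 32. Other pathway genes numbered 5 without TNFα of experiment 2, and 1 without TNFα of experiment 1 or either DMSO array. Over these, the log2 fold change stayed between 1.62 and 1.94 for Ahrr, and between 0.90 and 1.04 for the probe sets of Tiparp. By the fold rule, 4 probe sets of the battery became 5 at a threshold of 1.3-fold and 2 at a threshold of 2-fold. Those left at 2-fold were Ahrr and Tiparp on 1385407_at. Of the untested values, 50 of 54 moved by less than 1 SD under quantile normalization or no centring. TNFα over DMSO for Tiparp on 1385407_at, 0.06 here, was -0.019 after quantile normalization.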

Other observations

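Other known AHR targets and a bHLH-PAS relative differed with TNFα by sizes that varied between the experiments. Xdh, which encodes xanthine oxidoreductase, stood at 4.26-fold and 1.11-fold in TNFα over DMSO and at 0.63-fold and 1.23-fold in U0126 with TNFα over TNFα (limma adjusted p 0.909). Serpinb2 stood at 6.19-fold and 1.95-fold in TNFα over DMSO. In U0126 with TNFα over TNFα it stood at 0.32-fold and 0.73-fold (limma adjusted p 0.359, and 0.0248 without TNFα of experiment 2), opposite in direction to Ahrr. Npas2 stood at 2.47-fold and 1.64-fold in TNFα over DMSO and at 1.33-fold and 1.14-fold in U0126 with TNFα over U0126, which were not tested.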
